A study of Mus musculus with 6 samples.

Results

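The laminins and nidogens of the basement membrane were followed in NMuMG cells through 9 entries of the deposited count table: *Lama1*, *Lama3* and *Lama5* for laminin α chains, *Lamb1*, *Lamb2* and *Lamb3* for β chains, *Lamc1* for a γ chain, and the nidogen genes *Nid1* and *Nid2*. The members were taken by name, with earlier results of these data known, and make up 9 of 18512 entries. NMuMG is an epithelial line from mouse mammary gland. The cells were given DMSO, the vehicle, or TGF-β at 5 ng/ml, a cytokine that induces epithelial to mesenchymal transition (EMT), or TGF-β at 5 ng/ml together with 2APB at 50 uM. The paper describes 2APB as an inhibitor of store-operated calcium entry. It proposes that 2APB blocks the channels ORAI1 and ORAI2 but raises calcium entry by way of ORAI3. Each group had 2 replicates, which gave 6 libraries, and no library had 2APB without TGF-β. The study calls the replicates biological, but the labels do not tie them to separate cultures, so that p-values measure the spread between these libraries.

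A laminin molecule is a cross-shaped trimer of 1 α, 1 β and 1 γ chain, and each combination of chains is a different laminin. Trimers polymerise on the cell surface, where integrins and dystroglycan hold them through the α chain, while nidogens join the γ1 chain to the collagen IV network. In mammary gland this sheet lies under the epithelium and gives the cells their basal side, and laminin with the α3 and β3 chains anchors them through hemidesmosomes.

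Between 71840570 and 79473182 counts per library were assigned to genes, all values were even numbers, and replicates varied with a biological coefficient of variation of 17.4% across genes. This value pools groups of unequal spread. The SD, across genes, of the log2 difference between replicates was 0.33 in DMSO, 0.57 with TGF-β and 0.78 with TGF-β+2APB. The fit did not estimate the spread of each group separately. The 8 members other than *Lama3* passed the minimum mean of 20 normalized counts and were tested with 13353 genes in all. Of 6 epithelial markers, *Krt8* and *Krt18* were at 234425 normalized counts or more and at 161005 or more in every DMSO library, while *Epcam* was at 128 and 163 and *Cldn7* had at most 6 counts in any library. Cadherin gene *Cdh1* was at 91180 and 90601 in DMSO and at 47241 or more with TGF-β alone. Other markers set libraries apart: the summed level of 6 hepatocyte markers was 71586 to 80057 in DMSO, 369 to 729 with TGF-β and 135 to 142 with TGF-β+2APB. Of these 6, *Ahsg* was near 0 throughout, with 10 and 4 raw counts in DMSO replicates 1 and 2 and 0 in the other groups. A sum of 6 leukocyte markers was 3368 in TGF-β+2APB replicate 2 against 346 in replicate 1 and 261 to 855 in DMSO and TGF-β. Of the other cell types looked for, 6 endothelial markers summed to at most 53.3 and 6 myoepithelial markers to at most 125 normalized counts in any library. The 5 fibroblast markers in the table summed to 142 to 163 in DMSO and to 1716 to 2445 in the other libraries, mostly *Col1a1* (62.7, 1675 and 1899.8 on average in DMSO, TGF-β and TGF-β+2APB). *Dcn* and *Thy1* had at most 6 raw counts in any library and *Col3a1* at most 12. *Pdgfra* was not called with TGF-β (log2 fold change 0.23, 95% interval -0.29 to 0.74) and rose when 2APB was added (1.57, edgeR FDR 0.00904). The part of these markers in the member results was not tested. In bulk RNA, fewer cells of a type and less RNA per cell cannot be told apart.

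Sequences at RefSeq starts of the 3 β chain genes, which took different courses, are shown here. RefSeq promoters (GRCm38.p6, 250 bases before to 50 after the start) were at hand for 5 of the 9 members, *Lama5*, *Lamb1*, *Lamb2*, *Lamb3* and *Nid1*, with 2 starts for *Lamb3*, and 1 of these is printed. Capitals mark matches, on either strand, to CAGAC (a SMAD motif, held by 49.6% of 32851 mouse promoters of this length), CACCTG (an E-box of the Snai1 type, 20.2%), GGGCGG (a GC box, 35.7%) and TGANTCA (an AP-1 motif, 7.81%). The windows are chr12:31265043-31265342 (+ strand) for *Lamb1*, chr9:108479612-108479911 (+ strand) for *Lamb2* and chr1:193301993-193302292 (+ strand) for *Lamb3*.
Lamb1: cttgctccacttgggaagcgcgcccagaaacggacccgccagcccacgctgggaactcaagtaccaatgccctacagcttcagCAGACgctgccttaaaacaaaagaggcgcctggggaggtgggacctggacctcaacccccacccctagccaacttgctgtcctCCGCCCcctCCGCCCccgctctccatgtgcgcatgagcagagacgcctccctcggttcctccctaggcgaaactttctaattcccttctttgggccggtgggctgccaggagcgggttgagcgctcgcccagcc
Lamb2: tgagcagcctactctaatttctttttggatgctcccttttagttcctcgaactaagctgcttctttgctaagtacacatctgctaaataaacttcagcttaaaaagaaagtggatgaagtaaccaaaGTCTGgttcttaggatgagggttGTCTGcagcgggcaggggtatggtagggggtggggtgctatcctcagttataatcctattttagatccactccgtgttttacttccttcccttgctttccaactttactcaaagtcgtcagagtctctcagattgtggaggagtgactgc
Lamb3: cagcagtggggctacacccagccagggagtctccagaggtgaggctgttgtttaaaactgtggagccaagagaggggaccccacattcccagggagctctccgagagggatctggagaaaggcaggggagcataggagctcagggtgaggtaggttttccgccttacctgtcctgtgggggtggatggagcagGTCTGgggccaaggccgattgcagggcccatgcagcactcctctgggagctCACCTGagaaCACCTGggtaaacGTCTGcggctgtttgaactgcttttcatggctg

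No 2 of these motifs overlap in the windows shown. The *Lamb1* window held 1 CAGAC match and 2 GC boxes, the *Lamb2* window 2 CAGAC matches, and the *Lamb3* window 2 CAGAC and 2 CACCTG matches. The window of the other *Lamb3* start (chr1:193301744-193302043, + strand) overlaps the one shown and held 2 CAGAC matches, 0 CACCTG matches and 2 CpG. Both *Lamb3* windows lie inside the annotated gene, whose first base is at chr1:193207699, and the sequence at that upstream start was not examined. AP-1 matches were found in none of the 6 member windows. GC content was 63.7% with 18 CpG in *Lamb1*, 59.3% with 5 CpG in *Lamb3* and 44.0% with 4 CpG in *Lamb2*, against a median of 52.7% over all promoters. Of the members outside the β chains, the *Lama5* window (chr2:180225810-180226109, - strand) held 4 GC boxes, 2 CACCTG and 1 CAGAC match, and the *Nid1* window (chr13:13437352-13437651, + strand) held 1 GC box. A match is a string of letters and does not show that a factor binds there.

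With TGF-β, the main β chain transcript went from *Lamb2* to *Lamb1*, and *Nid2*, the main α chain gene *Lama5* and the γ1 chain gene *Lamc1* were lower than in DMSO. Of the 8 tested members, 2 rose (*Lamb1* and *Lamb3*), 4 fell (*Lama5*, *Lamb2*, *Lamc1* and *Nid2*) and 2 did not pass the test (*Lama1* and *Nid1*), by edgeR's quasi-likelihood test at a Benjamini-Hochberg FDR of 0.05 or less. Across all genes tested 41.5% were called in this comparison, 21.8% higher and 19.7% lower. The median log2 fold change of the 8 members was -0.43 against -0.01 for all genes.

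*Lamb2* (chr9:108479736-108490530, GRCm38), which encodes the β2 chain of the α5β2γ1 laminin, was at 31301 and 31596 normalized counts in DMSO replicates 1 and 2, 8329 and 7290.1 in the TGF-β replicates, and 6403 and 6984 in the TGF-β+2APB replicates. Both DMSO libraries stood far above the other 4, and no groups overlapped. The fall with TGF-β was 4.03-fold (log2 fold change -2.01, SE 0.10, edgeR FDR 9.84e-05).

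*Lamb1* (chr12:31265234-31329644), which encodes the more widespread β1 chain, had 8770.1 and 8902 normalized counts in DMSO replicates 1 and 2, 28786 and 24624 in the TGF-β replicates, and 20178 and 20349 in the TGF-β+2APB replicates. DMSO was the low group and TGF-β alone the high one, and TGF-β replicate 1 was the highest library. The rise with TGF-β was 3.02-fold (log2 fold change 1.60, SE 0.09, edgeR FDR 0.000163).

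*Lamb3* (chr1:193207699-193343878), whose β3 chain is found in the hemidesmosomal laminin, had 3373 and 3428 normalized counts in DMSO replicates 1 and 2, 8379.9 and 7942 in the TGF-β replicates, and 19422 and 19199 in the TGF-β+2APB replicates. The groups were well apart and the replicates of each lay close together. TGF-β raised it 2.40-fold (log2 fold change 1.26, SE 0.07, edgeR FDR 0.000139).

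**Figure D1:**
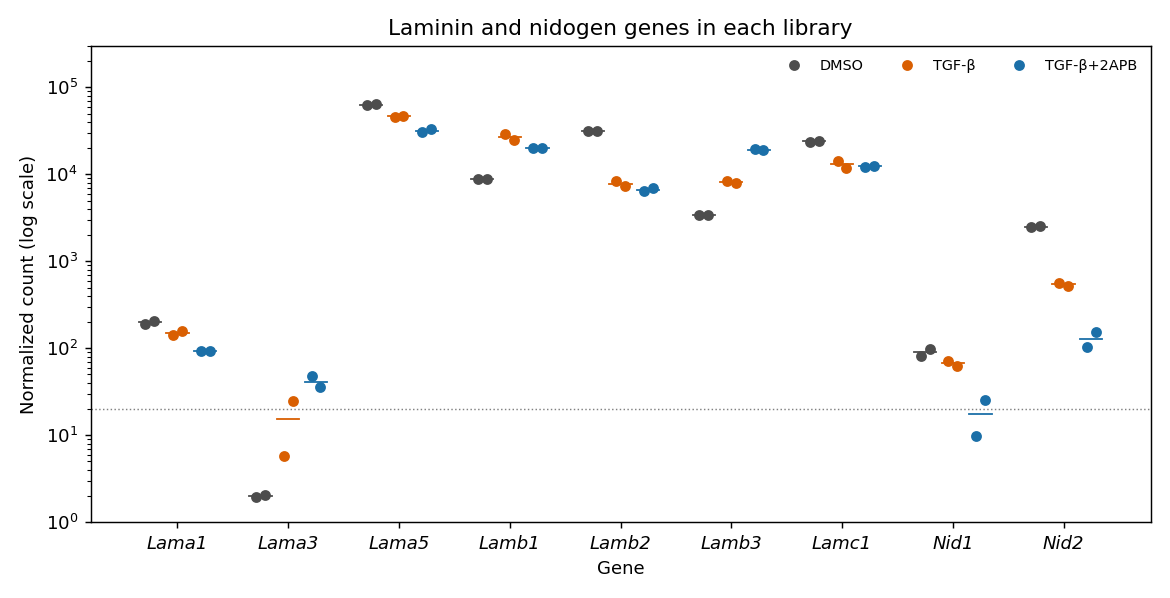
Normalized counts (log scale) of the 9 laminin and nidogen genes, with 1 point per library, coloured by group, a short line at each group mean, and a dotted line at the minimum mean of 20 used for testing. *Lamb2* and *Nid2* stand highest in DMSO, *Lamb1* in TGF-β and *Lamb3* in TGF-β+2APB.

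*Lama5* (chr2:180176373-180225859), the gene of the α5 chain that is usual in adult epithelial basement membrane, was the member with the highest counts. It had 62865 and 63805 normalized counts in DMSO replicates 1 and 2, 46197 and 47121 in the TGF-β replicates, and 30784.0 and 33095 in the TGF-β+2APB replicates. All libraries of a group stood together and the groups did not overlap. Its fall with TGF-β was small, 1.36-fold (log2 fold change -0.44, SE 0.07, edgeR FDR 0.00408). Without DMSO replicate 2 this call was lost (log2 fold change -0.43, edgeR FDR 0.0505).

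*Lama1* (chr17:67697259-67822647) encodes the α1 chain, known mostly from embryonic and early basement membrane. Its values were 193 and 204.5 normalized counts in DMSO replicates 1 and 2, 142 and 158 in the TGF-β replicates, and 93.1 and 92.7 in the TGF-β+2APB replicates. DMSO and TGF-β libraries did not overlap, but the difference missed the threshold (log2 fold change -0.40, 95% interval -0.90 to 0.09, edgeR FDR 0.158).

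*Lama3*, the gene of the α3 chain that pairs with β3, was too low to be tested. Deposited counts were 2 and 2 in the DMSO replicates, 6 and 24 in the TGF-β replicates, and 48 and 36 in the TGF-β+2APB replicates. Groups did not overlap, although the TGF-β libraries differed from each other more than those of the other groups. The ratio of summed counts, scaled to library size, was 7.48 for TGF-β to DMSO (95% counting interval 2.64 to 29.2), 2.75 for TGF-β+2APB to TGF-β (1.80 to 4.33) and 20.6 for TGF-β+2APB to DMSO (7.75 to 77.4). These intervals cover counting error only, and with counts divided by 2, since all values were even, they widened to 1.74 to 67.4, to 1.50 to 5.35 and to 5.36 to 175.7. In an edgeR fit of all entries without the minimum, *Lama3* had FDR values of 0.0588, 0.267 and 0.0109 in the same order. An annotated gene on the opposite strand, Gm29200, overlaps 197 of its 10745 exon bases, and the counting strand was not given in the sources used here.

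*Lamc1* (chr1:153218922-153332786), which encodes the γ1 chain to which nidogens bind, had 23855 and 24123 normalized counts in DMSO replicates 1 and 2, 14319 and 11843 in the TGF-β replicates, and 12202 and 12633 in the TGF-β+2APB replicates. The DMSO libraries were the highest, and the TGF-β replicates lay on either side of those with 2APB. The fall with TGF-β was 1.83-fold (log2 fold change -0.87, SE 0.10, edgeR FDR 0.00172).

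*Nid2* (chr14:19751265-19811787) encodes nidogen 2 and made up most nidogen transcripts. It had 2455 and 2564 normalized counts in DMSO replicates 1 and 2, 561 and 525 in the TGF-β replicates, and 103 and 156 in the TGF-β+2APB replicates. The 3 groups formed separate steps. TGF-β lowered it 4.62-fold (log2 fold change -2.21, SE 0.19, edgeR FDR 0.000553), the largest change among the 8 tested members in this comparison. On the opposite strand *Rtraf* overlaps 437 of the 5174 exon bases of *Nid2*, and with the counting strand unknown, reads of both genes there cannot be told apart.

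*Nid1* (chr13:13437551-13512269), the gene of nidogen 1, was low throughout, with 82.6 and 97.1 normalized counts in DMSO replicates 1 and 2, 72.1 and 62.3 in the TGF-β replicates, and 9.90 and 25.6 in the TGF-β+2APB replicates. DMSO and TGF-β did not overlap, yet were close. The TGF-β difference was not called (log2 fold change -0.42, 95% interval -1.52 to 0.69, edgeR FDR 0.494), and the interval takes in changes as large as those of *Lamc1*. Gm48682 overlaps 143 of the 6943 exon bases of *Nid1* on the opposite strand.

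Libraries of TGF-β and DMSO did not overlap for any of the 8 tested members, where 72.5% of all genes tested did not overlap. The 5 hepatocyte markers tested, of 6 listed, all fell with TGF-β, as *Lama5*, *Lamb2*, *Lamc1* and *Nid2* did. Their defining gene *Alb* was at 31570 and 28821 normalized counts in DMSO and at 93.5 and 41.5 with TGF-β, and their part in the member results was not tested. The 6 mesenchymal markers all rose with TGF-β, with a median log2 fold change of 1.10, among them *Cdh2* and *Vim*. Of 5 tested epithelial markers 3 fell, *Cdh1* (log2 fold change -0.78), *Epcam* (-1.42) and *Krt19* (-2.04), and 2 rose, *Krt8* (0.66) and *Krt18* (0.92), with edgeR FDR values up to 0.0141.

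The TGF-β+2APB libraries were compared with those of TGF-β to ask how levels differed once 2APB was added. As no library had 2APB alone, a changed response to TGF-β and an effect of 2APB itself cannot be told apart. *Lamb3* rose further above its DMSO level, *Lama5*, *Lamb1*, *Nid1* and *Nid2* were lower than with TGF-β alone, and *Lamb2*, *Lamc1* and *Lama1* did not pass the test. That is 1 higher, 4 lower and 3 not called among 8 members, while 17.5% of all genes tested were called, 6.58% higher and 10.9% lower. The median log2 fold change of the members was -0.47 against -0.0037 for all genes. Libraries of the 2 groups did not overlap for 7 of the 8 members, all but *Lamc1*, where 58.0% of all genes did not overlap. The comparison shares the TGF-β libraries with the one above.

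The increase of *Lamb3* was 2.37-fold (log2 fold change 1.24, SE 0.07, edgeR FDR 0.00234). For *Nid2* the decrease was 4.19-fold (log2 fold change -2.07, SE 0.20, edgeR FDR 0.00457). *Nid1* was called lower by a narrow margin (log2 fold change -1.91, SE 0.48, edgeR FDR 0.0476), on deposited counts of 74 and 60 against 10 and 26. Its call was lost in 7 of 15 alternatives, with edgeR FDR values of 0.115 without DMSO replicate 1, 0.116 without DMSO replicate 2, 0.0742 without TGF-β replicate 1 and 0.0953 without TGF-β+2APB replicate 1. TGF-β+2APB replicate 2, the library with the high leukocyte markers, had the higher value of both nidogen genes. Without it both calls stayed and both differences were larger, at log2 fold changes of -2.75 for *Nid1* (edgeR FDR 0.0222) and -2.40 for *Nid2* (edgeR FDR 0.00540).

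*Lama5* was 1.46-fold lower in TGF-β+2APB than in TGF-β (log2 fold change -0.55, SE 0.07, edgeR FDR 0.00733). Without TGF-β+2APB replicate 1 its FDR was 0.0593. *Lamb1* fell 1.32-fold (log2 fold change -0.40, SE 0.09, edgeR FDR 0.0361). This call was lost in 6 of 15 alternatives, with edgeR FDR values of 0.112 and 0.113 without DMSO replicate 1 or 2, and 0.186 and 0.180 without TGF-β+2APB replicate 1 or 2. The log2 differences of the members not called were -0.69 for *Lama1* (95% interval -1.19 to -0.19, edgeR FDR 0.0702), -0.22 for *Lamb2* (95% interval -0.45 to 0.01, edgeR FDR 0.157) and -0.08 for *Lamc1* (95% interval -0.33 to 0.18, edgeR FDR 0.652). Of these, *Lama1* was called lower by DESeq2, with an FDR of 0.0319. It was also called lower by edgeR when at least 10 counts were required in every library, with an FDR of 0.0416. Without TGF-β replicate 2, *Lamb2* (log2 fold change -0.32, edgeR FDR 0.0179) and *Lamc1* (log2 fold change -0.21, edgeR FDR 0.0243) were called lower, and without TGF-β replicate 1 the log2 fold change of *Lamc1* was 0.07.

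**Figure D2:**
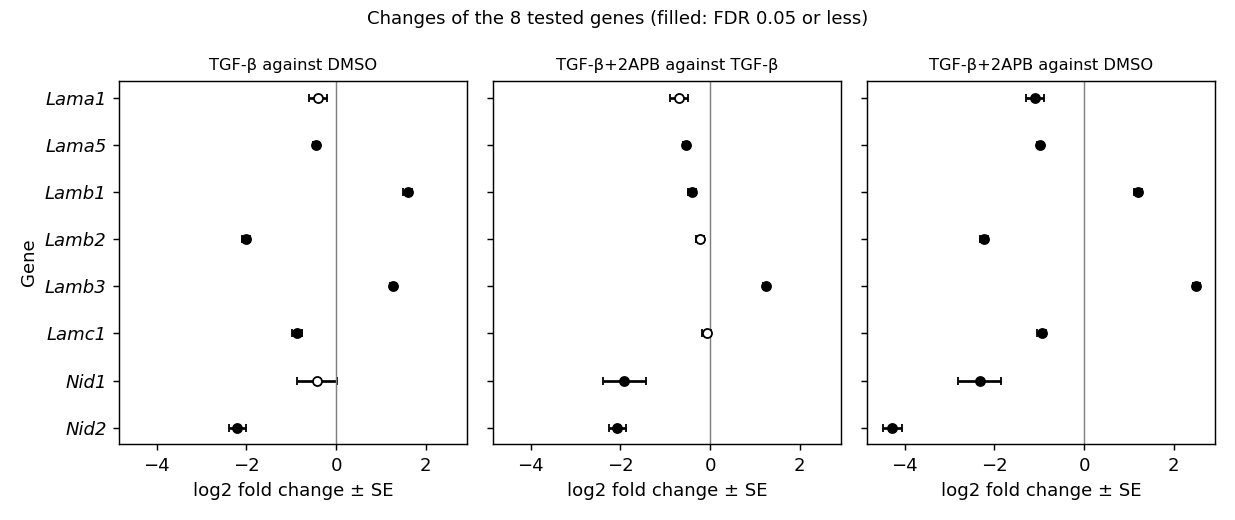
Log2 fold changes with standard errors of the 8 tested members in the 3 comparisons, filled where the edgeR FDR was 0.05 or less. *Lamb3* lies to the right of 0 in each panel and *Nid2* to the left, while *Lamb1* is 1.60 in the first panel and -0.40 in the second.

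Against DMSO, TGF-β+2APB left *Lamb1* and *Lamb3* higher and the other 6 tested members lower, so that 8 of 8 passed the test where 52.8% of all genes did (25.6% higher, 27.2% lower). The log2 fold changes were 2.51 for *Lamb3* (SE 0.07), 1.20 for *Lamb1* (SE 0.09), -0.95 for *Lamc1* (SE 0.10), -0.99 for *Lama5* (SE 0.07), -1.10 for *Lama1* (SE 0.20), -2.23 for *Lamb2* (SE 0.10), -2.33 for *Nid1* (SE 0.48) and -4.28 for *Nid2* (SE 0.21). Their edgeR FDR values ran from 1.70e-05 for *Lamb3* to 0.00937 for *Nid1*. The change of *Nid2* was 19.4-fold and that of *Lamb3* 5.68-fold. The median of the members was -1.04 against -0.0033 for all genes. No library of one group overlapped the other for any tested member, a separation that 86.0% of all genes had. Without DMSO replicate 2, *Lama1* and *Nid1* lost their calls (log2 fold changes -1.05 and -2.21, edgeR FDR 0.0524 for both).

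Levels can be compared between genes only per length, and normalized counts were therefore divided by the length of the longest transcript in kilobases (kb). In DMSO, *Lamb2* at 5587 ± 37.0 normalized counts per kb (SD, n = 2) and *Lama5* at 5562 ± 58.4 did not differ beyond their spread, followed by *Lamc1* at 3147 ± 24.8, *Lamb1* at 1528 ± 16.2, *Lamb3* at 699 ± 7.95 and *Nid2* at 515 ± 15.8. *Lama1* at 20.8 ± 0.885, *Nid1* at 14.7 ± 1.69 and *Lama3* at 0.191 ± 0.00674 came last. With TGF-β the order began with *Lamb1* at 4617 ± 509 and *Lama5* at 4097 ± 57.4, and then came *Lamc1* at 1716 ± 230, *Lamb3* at 1677 ± 63.7 and *Lamb2* at 1387 ± 131. *Lamc1* and *Lamb3* overlapped there. With TGF-β+2APB the order was *Lamb3* at 3968 ± 32.4, *Lamb1* at 3503 ± 20.9, *Lama5* at 2805 ± 143, *Lamc1* at 1629 ± 40.0, *Lamb2* at 1189 ± 73.1 and *Nid2* at 26.5 ± 7.67. At the low end, *Lama3* at 3.94 ± 0.805 and *Nid1* at 2.92 ± 1.83 overlapped.

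As shares of the 3 β chains per kb, *Lamb2* made up 71.5% ± 0.0858 (SD, n = 2) in DMSO, 18.1% ± 0.0465 after TGF-β and 13.7% ± 0.746 after TGF-β+2APB. The share of *Lamb1* went from 19.6% ± 0.0540 in DMSO to 60.1% ± 1.13 with TGF-β and 40.5% ± 0.0462 with TGF-β+2APB. *Lamb3* went from 8.94% ± 0.0317 through 21.9% ± 1.17 to 45.8% ± 0.700. Thus a different β chain had the largest share in each of the 3 groups, on transcript levels alone. The division by length matters between *Lamb1* and *Lamb3* with TGF-β+2APB, since without it *Lamb1* has the larger share, 43.8% against 41.7%. The smallest 2-sided p that an exact permutation test of 2 against 2 libraries can give is 0.333, so no test of the shares was made.

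The 3 α chains showed no such turnover: *Lama5* kept 99.6%, 99.6% and 99.5% of their transcripts per kb in DMSO, TGF-β and TGF-β+2APB. The sum of β chains per kb was 7770 and 7856 in DMSO replicates, 8178 and 7184 in TGF-β replicates and 8617 and 8704 in TGF-β+2APB replicates. That of the α chains was 5541 and 5624 in DMSO replicates, 4072 and 4157 in TGF-β replicates and 2717 and 2919 in TGF-β+2APB replicates. Sums and ratios given here rest on the longest transcript only. The ratio of β to α chain transcripts was accordingly 1.40 in both DMSO libraries, 2.01 and 1.73 in the TGF-β libraries, and 3.17 and 2.98 in those with 2APB. Nidogen transcripts per *Lamc1* transcript, the pair that binds, were at 0.165 and 0.171 in the DMSO libraries, 0.0675 and 0.0759 in the TGF-β libraries, and 0.0142 and 0.0218 in the TGF-β+2APB libraries.

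**Figure D3:**
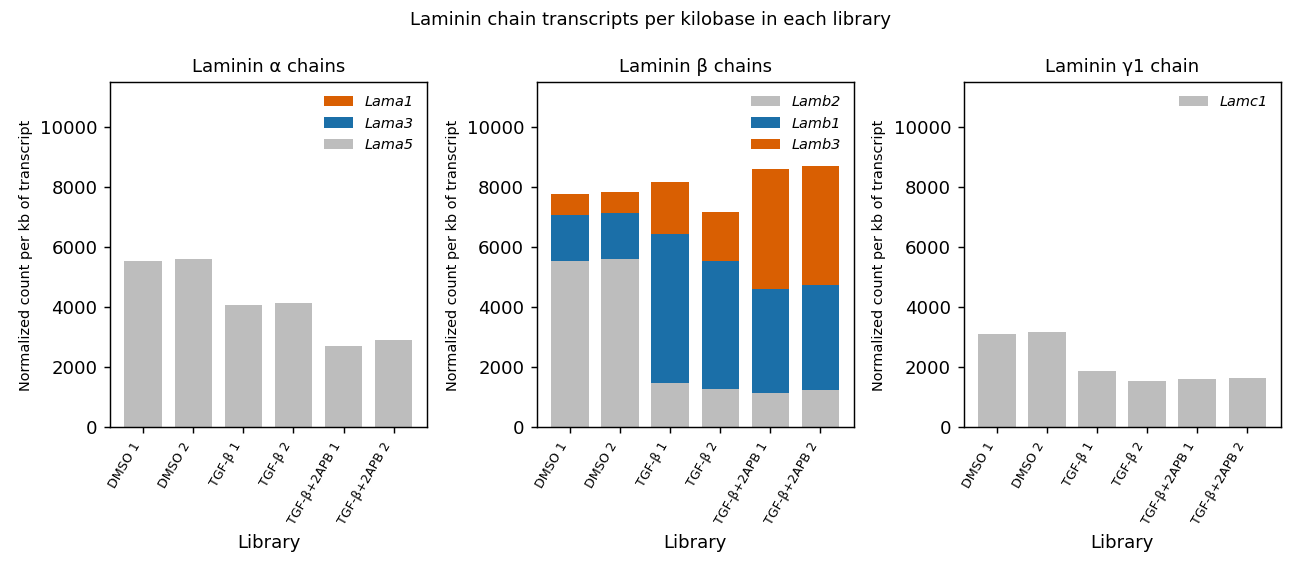
Normalized counts per kb of the longest transcript, stacked for the α and β chain genes of laminin and shown for the γ1 chain gene *Lamc1*, with 1 bar for each of the 6 libraries. The β bars lie between 7184 and 8704 and are tallest in TGF-β+2APB. Their largest piece is *Lamb2* in DMSO, *Lamb1* in TGF-β and *Lamb3* in TGF-β+2APB. The α bars, nearly all *Lama5*, get shorter from group to group.

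Of the laminin chain genes outside the members, *Lamc3*, for the γ3 chain, rose by log2 fold changes of 1.74 (SE 0.27, edgeR FDR 0.00464) with TGF-β and 1.16 (SE 0.26, edgeR FDR 0.0348) with 2APB added, from 29.5 and 39.3 normalized counts in DMSO. *Lama2* and *Lama4* had at most 6 counts in any library.

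Of 24 other basement membrane components listed, 21 were in the table and 16 were tested, of which 7 rose, 2 fell and 7 were not called with TGF-β, where 21.8% of all genes rose and 19.7% fell. The largest rises were those of *Col7a1*, the anchoring fibril collagen (log2 fold change 7.07, SE 0.26, edgeR FDR 5.13e-05), and *Fbln2*, a fibulin that binds laminin and nidogen (4.43, SE 0.09, edgeR FDR 2.12e-05). *Col18a1* (1.54, SE 0.08), the peroxidasin gene *Pxdn* (1.29, SE 0.09) and the perlecan gene *Hspg2* (1.16, SE 0.07) also rose. *Tinagl1* fell by 0.63 on the log2 scale (SE 0.10). The median log2 fold change of the 16 was 0.31, against -0.43 for the 8 members and -0.01 for all genes.

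The main collagen IV genes, whose product nidogens join to laminin, were not called with TGF-β, at log2 fold changes of 0.21 for *Col4a1* (95% interval 0.02 to 0.40, edgeR FDR 0.0760) and 0.27 for *Col4a2* (95% interval 0.06 to 0.48, edgeR FDR 0.0502). Both were higher in TGF-β+2APB than in DMSO, by 0.45 (edgeR FDR 0.00469) and 0.41 (edgeR FDR 0.00969). The lower-count *Col4a5* was at -1.71 with TGF-β, not called (95% interval -3.19 to -0.23, edgeR FDR 0.0671), and was lower in TGF-β+2APB than in DMSO (-3.07, SE 0.65, edgeR FDR 0.0104), and *Col4a3* was not called in either (-0.51, 95% interval -1.40 to 0.39, and -0.84, 95% interval -1.75 to 0.07). Once 2APB was added to TGF-β, 2 of the 16 components rose, *Col15a1* (0.98, SE 0.10) and the netrin gene *Ntn4* (0.54, SE 0.07), whose product binds laminin γ chains, and 2 fell, so that 4 of 16 passed where 17.5% of all genes did. Those that fell were *Col18a1* (-0.50, SE 0.08) and the agrin gene *Agrn* (-0.44, SE 0.07), a laminin-binding proteoglycan. Against DMSO, TGF-β+2APB had 10 of the 16 higher and 3 lower, where 25.6% of all genes were higher and 27.2% lower. The highest edgeR FDR among these named calls of *Col15a1*, *Ntn4*, *Col18a1* and *Agrn* was 0.0154.

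All 14 listed laminin receptors and their partners were tested. With TGF-β 5 rose, 3 fell and 6 were not called, so that 8 of 14 passed where 41.5% of all genes did. The integrin genes *Itgb1* (log2 fold change 1.60, SE 0.08), *Itga3* (1.52, SE 0.12) and *Itga2* (1.19, SE 0.13) rose, and *Itga1* (-3.06, SE 0.18), the Lutheran glycoprotein gene *Bcam* (-1.28, SE 0.21), a receptor for the α5 chain, and *Itgb4* (-0.75, SE 0.10), the hemidesmosomal β subunit, fell, with edgeR FDR values up to 0.00564. *Itga6*, the partner of *Itgb4*, was not called (0.09, 95% interval -0.07 to 0.25). With 2APB added, 5 of the 14 fell relative to TGF-β and 9 were not called, where 10.9% of all genes fell. The falls were led by *Itga1* (-2.14, SE 0.19), *Bcam* (-1.36, SE 0.22) and *Itga3* (-0.60, SE 0.12). *Sdc4* (-0.54, SE 0.11) and the dystroglycan gene *Dag1* (-0.38, SE 0.09) were the other two, with edgeR FDR values up to 0.0370. Relative to DMSO, 7 receptors were higher and 4 lower with TGF-β+2APB, where 52.8% of all genes were called.

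**Figure D4:**
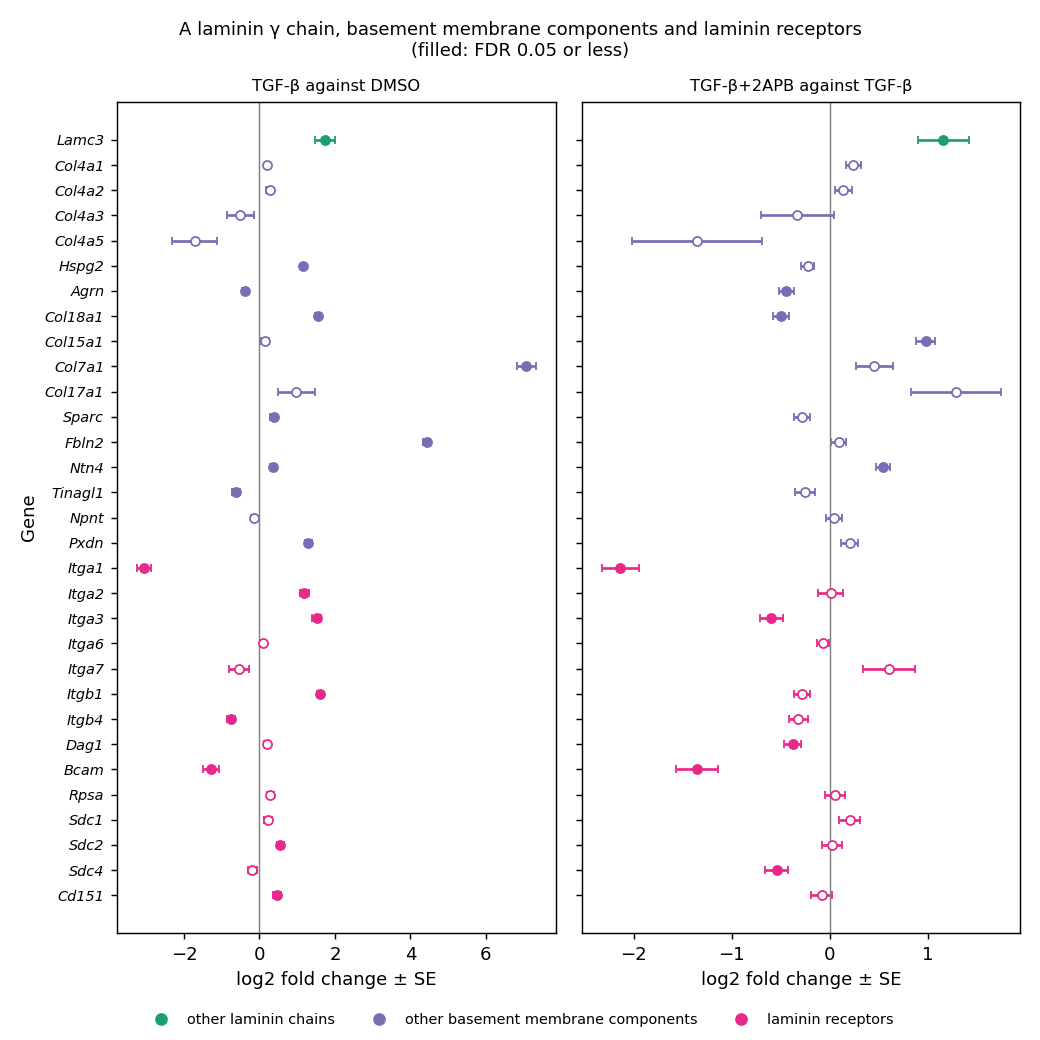
Log2 fold changes with standard errors of the tested genes among *Lamc3*, other basement membrane components and laminin receptors, filled where the edgeR FDR was 0.05 or less, with a different horizontal scale in the 2 panels. *Col7a1* at 7.07 and *Fbln2* at 4.43 stand farthest right in the first panel, *Itga1* stands farthest left in both, and *Lamc3* rises in both, at 1.74 and 1.16.

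For each member, the genes nearest in pattern were found by the root mean square (RMS) difference, over 6 libraries, of log2 normalized counts from the DMSO mean. *Lamb1* was nearest to the TGF-β binding protein gene *Ltbp4* (0.0672) and to *Col18a1* (0.0951), itself a basement membrane gene. *Lamb2* was nearest to the polarity gene *Llgl2* (0.0749), *Lamb3* to *Phldb3* (0.109), *Lama5* to *Hdac7* (0.0565) and *Lamc1* to *Mcu* (0.0229), the mitochondrial calcium uniporter. *Lama1* was nearest to *Caprin2* (0.0439), *Nid2* to *Glyat* (0.150) and *Nid1* to *Cdkn3* (0.156). The low-count *Lama3* had the most distant nearest gene, *Hecw2* at 0.405. These distances are descriptions and were not tested.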

How the data were processed

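RNA of NMuMG cells was sequenced from 6 libraries, 2 for each of DMSO, TGF-β and TGF-β+2APB. The authors selected RNA with oligo-dT, sequenced single-end reads, aligned them with TopHat (2.0.13 in the processing notes) and summarised them per gene with featureCounts, and the deposited values are raw counts per gene symbol. The notes name mm10 and the paper's methods name hg19, while all symbols are in mouse form. Strand setting and treatment of reads with several alignments are not given in the sources used here. All deposited values were even, and 25 names had become dates in a spreadsheet. The sources also differ in the timing of 2APB.

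The analysis used edgeR 4.0.16 under R 4.3.3. TMM factors scaled the libraries, a mean of 20 or more normalized counts was required, and 1 quasi-likelihood model held all 3 groups. A Benjamini-Hochberg FDR of 0.05 or less over 13353 genes was called. Scaling was to the mean library size. Intervals of log2 differences cover 95%. Alternatives were DESeq2 1.42.0, other scalings, filters and thresholds, the replicate number as a block, the 4 libraries compared alone, counts divided by 2, and each library left out. Fits were tested on simulated data with known changes. The members, gene lists and tests were chosen with earlier results of these data known. Named genes are all members, at most the 6 largest called changes of each list, and the 3 nearest in pattern, of which the first are given, while *Col4a1*, *Col4a2*, *Col4a3*, *Col4a5*, *Itga6* and the single cell type markers were named from the lists after their values were seen. Gene positions and transcript lengths came from GENCODE (GRCm38), and promoters from RefSeq. The promoters of *Lama1*, *Lama3*, *Lamc1* and *Nid2* and all protein sequences were not analysed here, and results for 1 listed gene are not reported here.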

Additional observations from a re-analysis of the deposited data

How the results depend on the processing

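Of 360 pairs of a member's comparison and an alternative, 338 kept their direction and side of the threshold, 17 lost a call, 4 gained one and 1 reversed, and the cause was not tested. The reversal was the log2 fold change of *Lamc1* between TGF-β+2APB and TGF-β, which ran from -0.21 without TGF-β replicate 2 to 0.070 without TGF-β replicate 1. Member calls in that comparison, 5 in the report, were 3 with the replicate number as a block, at an FDR of 0.01, at a log2 fold change of at least 1 and with the 4 libraries alone, and 2 to 7 when a library was left out. Over all genes, the 2334 calls there became 3698 with DESeq2, 1342 with the replicate block, 601 at an FDR of 0.01, 840 at a log2 fold change of at least 1, 878 with 4 libraries and 856 to 5427 with a library left out. For TGF-β against DMSO, 5548 calls became 3369 at an FDR of 0.01, 2117 at a log2 fold change of at least 1 and 2782 to 7659 with a library left out. For TGF-β+2APB against DMSO, 7044 calls became 3029 at a log2 fold change of at least 1 and 4402 to 8996 with a library left out. Fits without 1 library have a lone sample in a group, which is assumed to vary like the others. The log2 differences between replicates correlated at r = 0.148 for DMSO with TGF-β, -0.458 for DMSO with TGF-β+2APB and -0.255 for TGF-β with TGF-β+2APB. With 1 difference per group, these values cannot show whether the replicate number pairs the samples. The block changed no other member call than those of *Lamb1* (edgeR FDR 0.0724) and *Nid1* (edgeR FDR 0.0808) between TGF-β+2APB and TGF-β. With the TGF-β+2APB numbers exchanged, a choice made after seeing the data, 5706, 2465 and 7232 genes and 6, 5 and 8 members were called. Chain shares moved with the length used: by coding length in DMSO, TGF-β and TGF-β+2APB, *Lamb1* had 19.1%, 56.2% and 35.3%, *Lamb2* 69.3%, 16.8% and 11.9% and *Lamb3* 11.5%, 27.0% and 52.8%. Without division by length *Lamb1* had 20.2%, 62.5% and 43.8%, *Lamb2* 72.0% and 18.3% in the first 2 groups, *Lamb3* 7.78%, 19.2% and 41.7% and *Lama5* 99.7%, 99.6% and 99.6%. Depth limits *Lama3* and *Nid1*, the members with under 100 counts in every library.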

Other observations

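Of 14 listed proteases known to cut laminin or nidogen, 7 were tested, of which 3 rose with TGF-β, 2 fell and 2 were not called, where 41.5% of all genes were called. *Mmp9*, a gelatinase, was at 27.5 and 20.7 normalized counts in DMSO replicates 1 and 2, 3299.8 and 3275 in the TGF-β replicates, and 1340.3 and 937 in the TGF-β+2APB replicates. It rose with TGF-β (log2 fold change 7.08, SE 0.26, edgeR FDR 5.20e-05) and was lower once 2APB was added (-1.53, SE 0.19, edgeR FDR 0.00720). *Bmp1*, whose product trims laminin chains, rose with TGF-β by 2.29 (SE 0.07, edgeR FDR 3.91e-05), and *Adamts1* was lower in both steps, at -0.87 (SE 0.16, edgeR FDR 0.00799) and -1.71 (SE 0.17, edgeR FDR 0.00471).

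Of 12 tested genes for the glycosylation by which dystroglycan binds laminin, 6 rose with TGF-β, 1 fell and 5 were not called, so that 7 of 12 passed where 41.5% did over the whole table. With 2APB added, 3 rose, 1 fell and 8 were not called, where 17.5% passed over the whole table. *Large*, the glycosyltransferase that builds the laminin-binding sugar, rose in both steps, by log2 fold changes of 0.49 (SE 0.09, edgeR FDR 0.00858) and 0.51 (SE 0.09, edgeR FDR 0.0187). Of 6 listed hemidesmosome genes, 2 rose with TGF-β, 1 fell and 3 were not called, where 41.5% passed over the whole table. *Dst* (log2 fold change 0.42) and *Cd151* (0.46) rose, *Itgb4* fell, and *Plec*, *Col17a1* and *Itga6* were not called. *Itgb4*, *Itga6* and *Cd151* were also counted among the laminin receptors, and *Col17a1* among the basement membrane components. With 2APB added, 0 of these 6 passed the edgeR test, where 17.5% of all genes did. DESeq2 called 1 of the 6, where it called 3698 of 13353 genes. An unadjusted edgeR p under 0.05 was found for 3 of the 6, and its share over all genes was not counted. The genes named here were chosen after their values were seen.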
